A study of Solanum lycopersicum with 24 samples.

Results

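Tomato mRNAs for redox enzymes, among them peroxidases and cytochromes P450, were followed through lists of N1-methyladenosine (m1A) peaks. m1A is adenosine with a methyl group at its N1 position. The genes were those with an mRNA peak in at least 1 library whose description named a peroxidase, P450, dehydrogenase, reductase, oxidase, thioredoxin, catalase or superoxide enzyme. Descriptions with the word kinase and 3 loci (Solyc07g049530, Solyc09g089580 and Solyc06g059740) were left out. This gave 58 of the 1945 mRNA genes called in any library, and of the 974 that carried a description. The choice rested on descriptions and on having a peak somewhere, so a gene without any peak could not enter. The words also took in a few proteins that are not redox enzymes themselves. Among them were an assembly factor, the spliceosomal protein YLS8 and the acetyltransferase component of the pyruvate dehydrogenase complex. The acetyltransferase gene was called in all 12 libraries.

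Each library was made by immunoprecipitation (IP) of fragmented total RNA with an m1A antibody, and 1 mRNA peak list per IP library was used. Nr O fruit was from the homozygous Never-ripe mutant, which carries a mutated ethylene receptor, 6 days after the breaker stage, when its fruit is orange. Nr G fruit was from the same mutant at the mature green stage, approximately 39 days after flowering. AC Br+6 fruit was red fruit of the wild type Ailsa Craig 6 days after the breaker stage, and AC MG was mature green wild-type fruit of the same age as Nr G. Each group had 3 replicates, the mutant is in the Ailsa Craig background, and no group received a treatment according to the labels. The letters G and O were read as the green and the orange late stage. The tissue label says tomato and no more. Of 4 fruit or ripening genes, 2A11 (Solyc07g049140) had peaks in 9 libraries, E8 (Solyc09g089580) in 4, PG2A (Solyc10g080210) in 3 and PSY1 (Solyc03g031860) in 2. In any library, 4 genes described as chlorophyll a-b binding proteins or by the name of Rubisco had a peak, and 0 genes described by words for seed storage or late embryogenesis proteins had a peak.

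Redox enzymes move electrons between substrates. Dehydrogenases feed the respiratory chain and primary metabolism, and peroxidases, catalase, superoxide dismutase and the ascorbate and thioredoxin systems handle hydrogen peroxide and related oxidants. Cytochromes P450 add oxygen to hormones, lipids and secondary metabolites. Ripening tomato fruit turns chloroplasts into chromoplasts while respiration and oxidant production change.

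Library size set the frame for every count below. The 12 mRNA lists held 108 to 854 peaks (median 234.5), and sequencing depth is unknown. The redox genes had 122 of the 3852 peaks. A library called between 2 and 27 of them (median 7). AC Br+6 replicate 3 and AC MG replicate 1, the longest lists with 735 and 609 called genes, called 27 and 21. Of the 58 genes, 30 (51.7%) were called in these 2 libraries and nowhere else, against 820 of all 1945 genes (42.2%). The other 10 libraries together called 28 redox genes and 1125 of all 1945 genes.

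**Figure D1:**
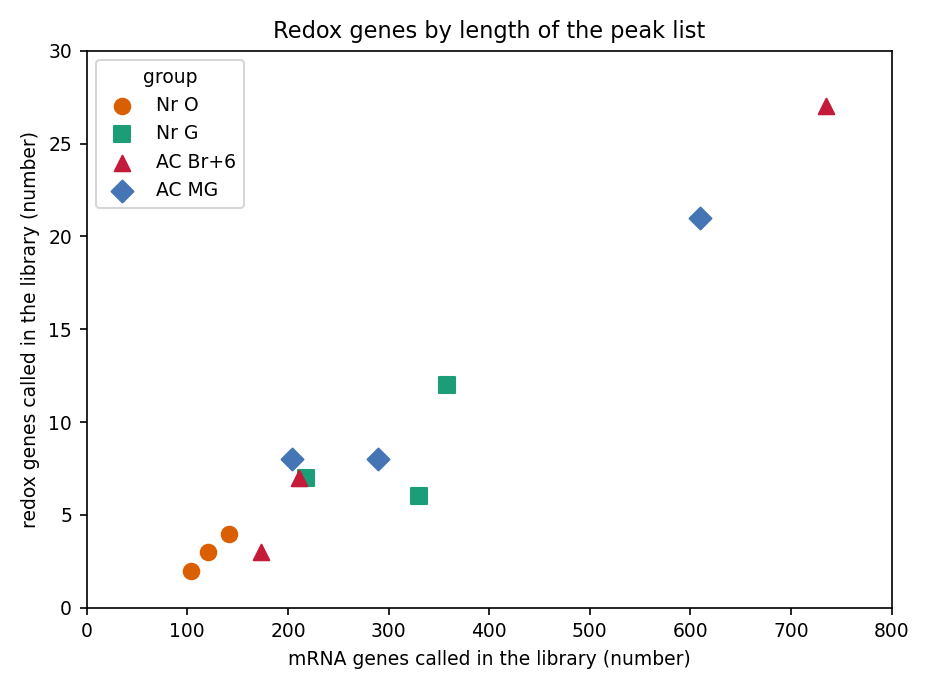
Number of redox genes called (vertical axis) against the number of all mRNA genes called (horizontal axis) in each of the 12 IP libraries, with 1 point per library and the group shown by colour and shape. The libraries with 735 and 609 called genes had 27 and 21 redox genes, and the other 10 had 2 to 12.

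As a share of the genes called in a library, redox genes took 1.92%, 2.84% and 2.48% in Nr O and 3.35%, 3.21% and 1.82% in Nr G. In AC Br+6 they took 1.73%, 3.32% and 3.67%, and in AC MG 3.45%, 3.92% and 2.77%. The group means were 2.41% ± 0.46 (SD, n = 3) in Nr O, 2.79% ± 0.848 in Nr G, 2.91% ± 1.03 in AC Br+6 and 3.38% ± 0.58 in AC MG. The ranges of all 4 groups overlapped. Counted as genes with a peak in any library of the group, 4 of the 58 appeared in Nr O, 19 in Nr G, 30 in AC Br+6 and 29 in AC MG. Over all 1945 genes the same counts were 193, 672, 906 and 863. Of the 58 redox genes, 0 were found in Nr O alone, 10 in Nr G alone, 17 in AC Br+6 alone and 15 in AC MG alone, where the counts over all 1945 genes were 46, 390, 582 and 507.

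Most redox genes were called once. Of the 58, 40 (69.0%) had a peak in 1 library, 12 in 2 libraries, 2 in 3, 1 in 4, 1 in 10 and 2 in all 12. Over all 1945 genes, 75.6% were called in 1 library and 3.14% in all 12. Over the described genes, the only ones that could enter the redox set, the shares were 77.4% and 1.44%. The 2 redox genes called in all 12 were 3.45% of the 58. The 18 redox genes called at least 2 times are shown by library in the map of fold enrichments.

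**Figure D2:**
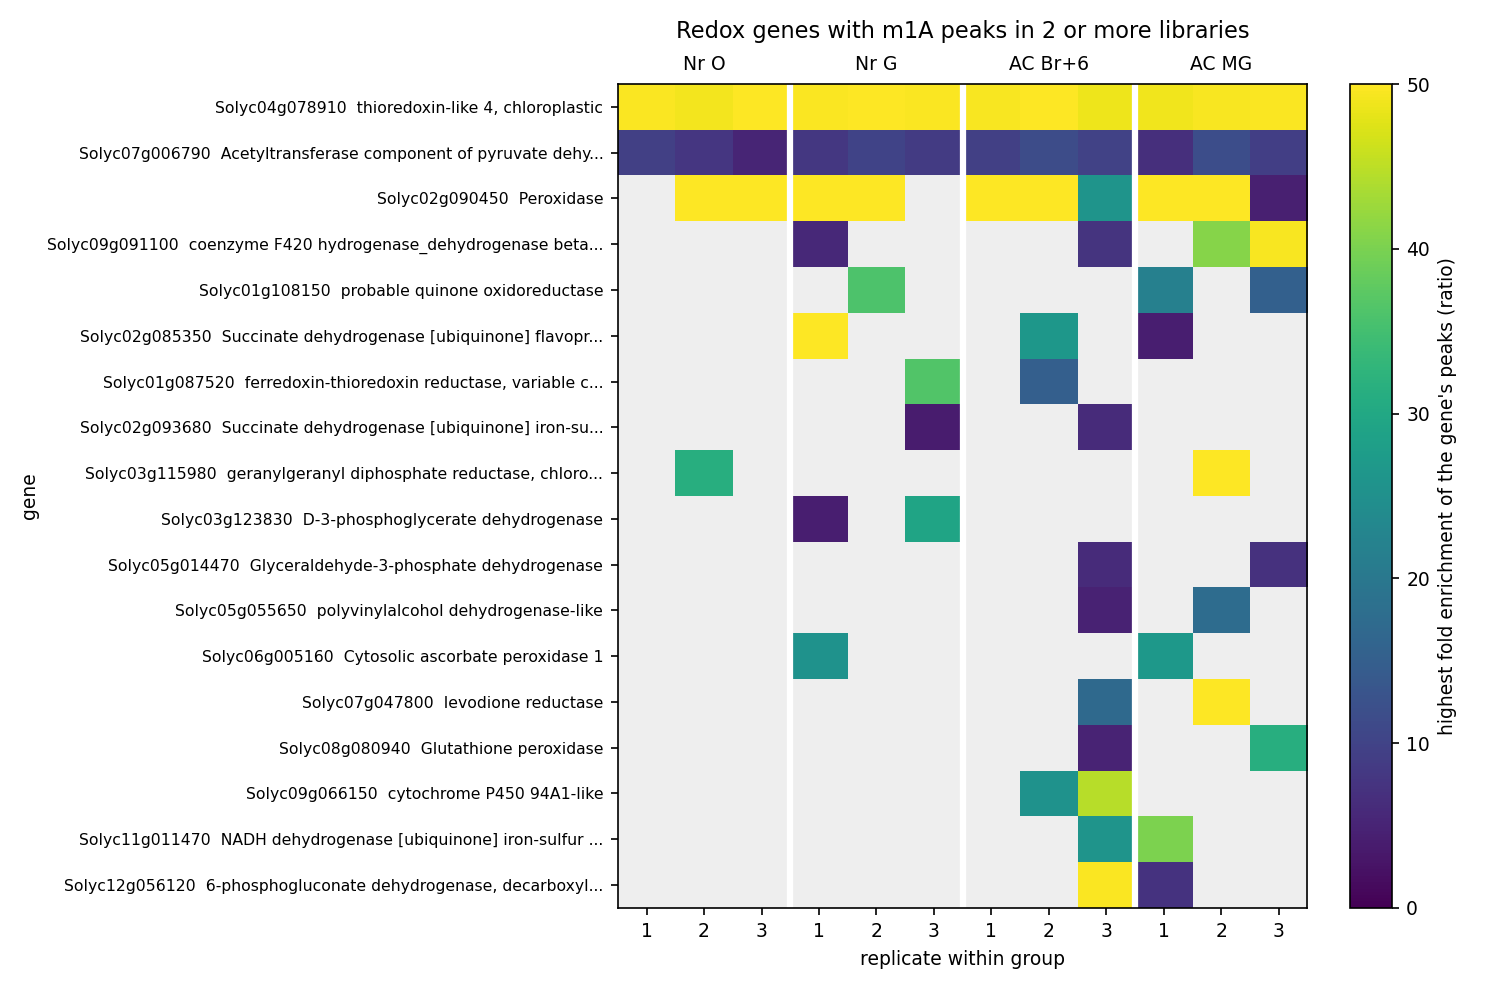
Highest fold enrichment (colour, the authors' ratio, from 0 to 50) of the peaks in each of the 18 redox genes called in 2 or more libraries (rows), for the 3 replicates of each of the 4 groups (columns). Grey means that no peak was listed. Filled rows belong to thioredoxin-like 4 and the pyruvate dehydrogenase acetyltransferase, the peroxidase row lacks 2 libraries, and the other rows have 2 to 4 filled cells.

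The antioxidant enzymes are described first. The peroxidase gene Solyc02g090450 was called in 10 libraries, in replicates 2 and 3 of Nr O, replicates 1 and 2 of Nr G and all 3 replicates of both AC groups. Its description gives no peroxidase class. The peak lay on chromosome 2 of SL3.00 from 52636595 to 52636981 and was 382 to 386 bases long, with starts that differed by 1 base. The fold enrichment, which the authors list for each peak as a ratio, was 50 in both Nr O and both Nr G libraries. It was 50, 50 and 25.95 in AC Br+6 replicates 1, 2 and 3, and 50, 50 and 4.31 in AC MG replicates 1, 2 and 3. The value 50 is the highest in the lists, so those 8 libraries cannot be ordered. AC MG replicate 3 was the low one, at percentile 18.7 of the fold enrichments in its own list, although its peak had the same place and length as the rest to within 4 bases. Called in 10 libraries, the gene fell outside the range tested by gene. No other mRNA gene had the same set of calls, and 2 had the same call in 11 of 12 libraries: Solyc01g009730, without description, and Solyc11g013850, an uncharacterised gene.

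Cytosolic ascorbate peroxidase 1 (APX1, Solyc06g005160), which reduces hydrogen peroxide with ascorbate, had peaks in Nr G replicate 1 and AC MG replicate 1. In Nr G the peak was at 183228 to 183289 on chromosome 6 with a fold enrichment of 25.43. In AC MG there were 2 peaks, at 181813 to 181892 and 182620 to 182700, with 23.37 and 26.63. No stretch of the gene was thus shared between the 2 libraries, and the nearest peaks were 528 bases apart. Glutathione peroxidase (Solyc08g080940, chromosome 8), which reduces lipid and hydrogen peroxides, likewise had no shared stretch. Its AC Br+6 replicate 3 peaks had fold enrichments of 2.97 and 4.92, and its AC MG replicate 3 peak had 31.25 at least 976 bases away.

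The other scavengers were called once each. Catalase CAT2 (Solyc02g082760), which splits hydrogen peroxide, had a peak at the top fold enrichment of 50 in Nr G replicate 1 (chromosome 2, 46959998 to 46960209). The Cu-Zn superoxide dismutase gene SODCC.1 (Solyc01g067740), which turns superoxide into hydrogen peroxide, had 2 weak peaks in AC Br+6 replicate 3, at 2.17 and 2.97. Monodehydroascorbate reductase (AFRR, Solyc09g009390), which regenerates ascorbate, had fold enrichments of 3.09 and 3.43 in the same library. L-galactono-1,4-lactone dehydrogenase (Solyc10g079470), the last enzyme of ascorbate synthesis, had 13.89 in AC MG replicate 1. AFRR was chosen after its calls were seen.

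One gene of the thioredoxin words had a peak close to the highest value in every library. Thioredoxin-like 4 (Solyc04g078910, chromosome 4, 63665137 to 63665317), a chloroplast protein by its description, was called in all 12 libraries. Its fold enrichment was 49.67, 49.12 and 49.89 in Nr O and 49.64, 49.85 and 49.7 in Nr G. In AC Br+6 it was 49.58, 49.87 and 48.76, and in AC MG 48.83, 49.55 and 49.73. All 4 groups overlapped. The start and end were the same in 11 libraries, and AC MG replicate 3 had a shorter peak of 111 bases from the same start. The variable chain of ferredoxin-thioredoxin reductase (Solyc01g087520), which passes electrons from photosynthesis to thioredoxins, had a peak of 36.33 in Nr G replicate 3 and one of 15.09 in AC Br+6 replicate 2. Those peaks lay 242 bases apart. YLS8 (Solyc04g009230) had a fold enrichment of 3.02 in Nr G replicate 1.

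The cytochrome P450 genes numbered 4. The P450 94A1-like gene (Solyc09g066150, chromosome 9) had peaks in AC Br+6 replicates 2 and 3 and in no other library. Related CYP94 enzymes oxidise fatty acids and, in Arabidopsis, jasmonoyl-isoleucine. The peak of replicate 2 was at 64810063 to 64810330 with a fold enrichment of 25.42, and that of replicate 3 at 64809476 to 64809741 with 44.67. The 2 peaks were 322 bases apart, so the AC Br+6 libraries shared the gene and not the position. Another 7 mRNA genes were called in these 2 libraries and no others, among them an auxin response factor gene (Solyc02g077560). The remaining P450 genes were called once. The P450 94C1-like gene (Solyc10g083400) had a fold enrichment of 10.29 in AC Br+6 replicate 3 over 1042 bases, the longest redox peak. CYP706C2 (Solyc08g079280) had 32.96 in Nr G replicate 2, and the P450 71A4-like gene (Solyc03g111973) had 2.64 and 7.08 in AC MG replicate 1.

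**Figure D3:**
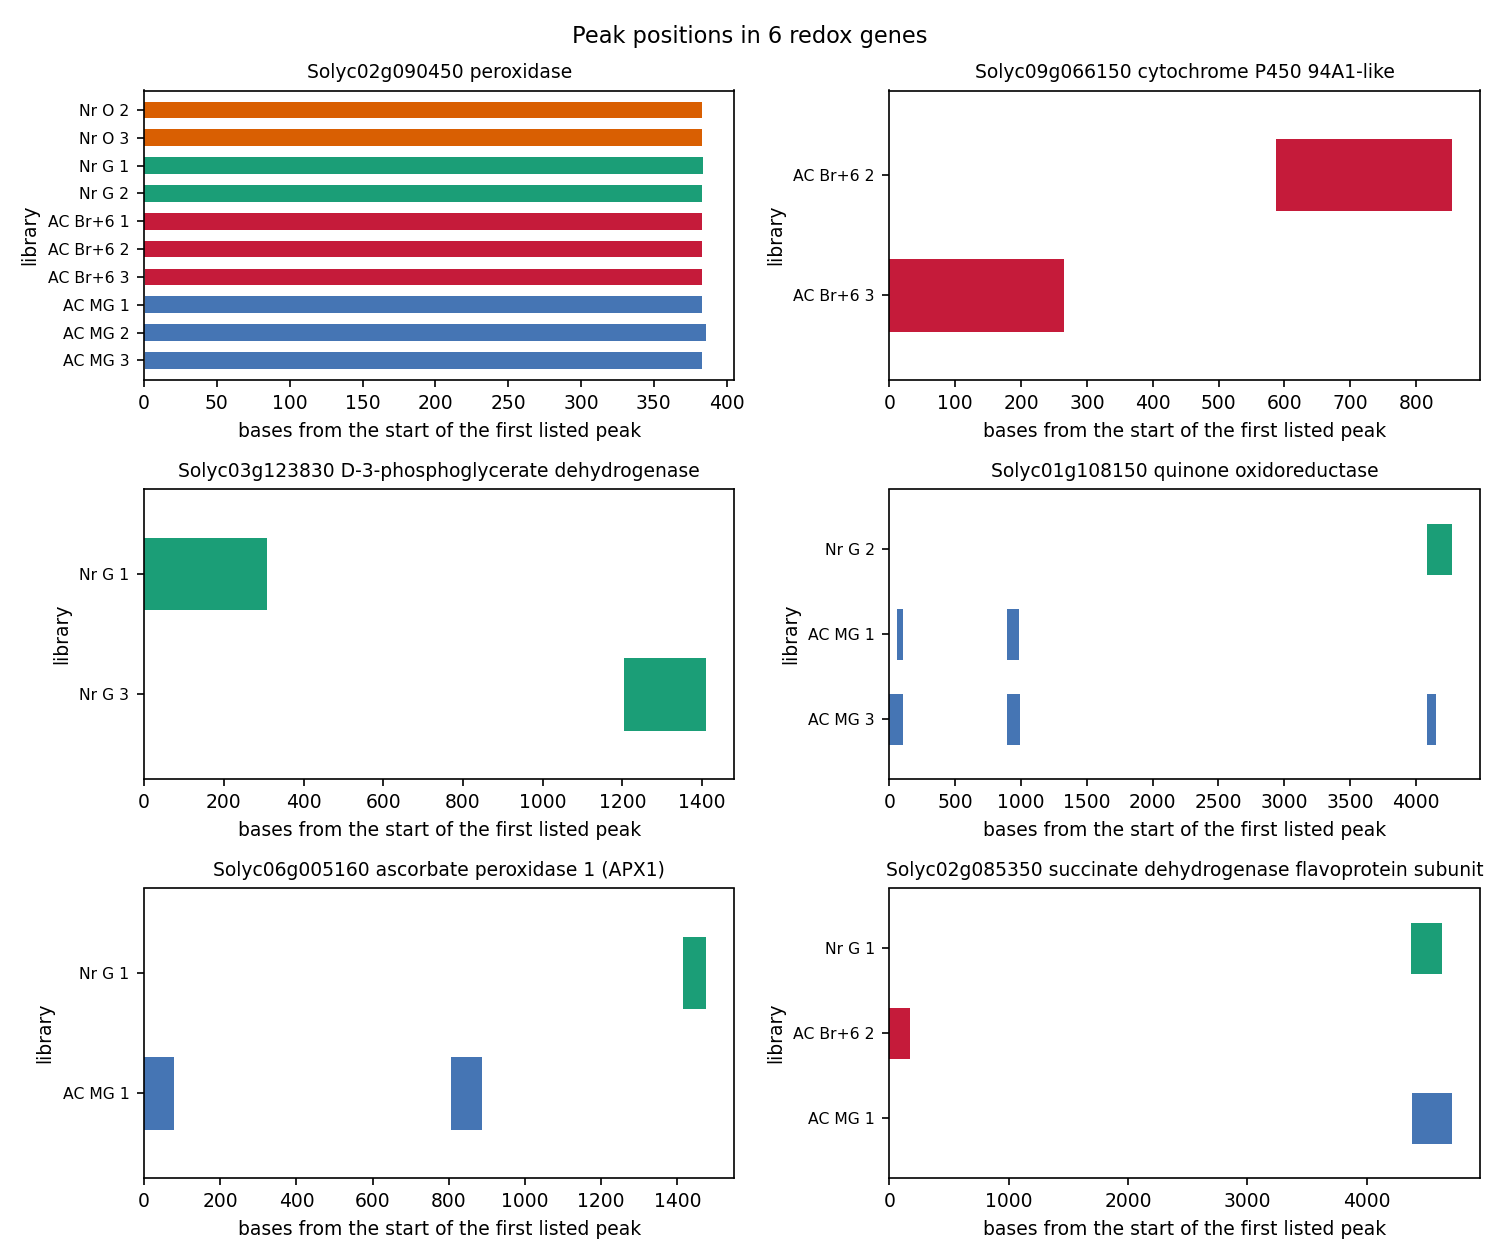
Peaks of 6 redox genes as bars drawn to scale, with distance in bases from the start of each gene's first listed peak on the horizontal axis and 1 row per library that had a peak, coloured by group. The peroxidase bars coincide over 382 to 386 bases, while the bars of the P450 94A1-like gene, D-3-phosphoglycerate dehydrogenase and APX1 do not overlap between libraries.

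Dehydrogenases were the largest class, with 25 genes, 16 of them called in 1 library, beside 75.6% of all mRNA genes. The acetyltransferase component of the pyruvate dehydrogenase complex (Solyc07g006790, chromosome 7), which links glycolysis to the citric acid cycle, was called in all 12 libraries at moderate values. Its fold enrichment was 9.57, 7.93 and 5.23 in Nr O and 8.18, 10.01 and 8.76 in Nr G. It was 9.53, 11.65 and 9.95 in AC Br+6 and 6.8, 11.91 and 9.35 in AC MG. The groups overlapped. In 11 libraries the peak ran from 1638926 to 1639020. AC MG replicate 3 instead had its peak at 1639181 to 1639303, 161 bases further on, so its call was at another position. All of these values were below 14.4, the median of all mRNA peaks, whereas thioredoxin-like 4 was close to the highest value. Both E1 alpha genes of the same complex, Solyc12g009400 and Solyc12g009410, had a peak in Nr G replicate 1. Their peaks were each 325 bases long with a fold enrichment of 4.62 and lay 4599 bases apart, and whether the 2 neighbouring copies share reads was not tested. This pair was chosen after its values were seen.

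Among the respiratory chain genes, succinate dehydrogenase (complex II) recurred. Its flavoprotein subunit gene (Solyc02g085350, chromosome 2) had a fold enrichment of 50 in Nr G replicate 1, 26.48 in AC Br+6 replicate 2 and 4.17 in AC MG replicate 1. The Nr G and AC MG peaks overlapped near 48914045, and the AC Br+6 peak was 4197 bases away. The iron-sulfur subunit gene (Solyc02g093680) had overlapping peaks of 3.73 in Nr G replicate 3 and 6.17 in AC Br+6 replicate 3. Complex I, which oxidises NADH, had 6 genes, and 5 of them were called in 1 library, beside 75.6% of all 1945 genes. The iron-sulfur protein 1 gene (Solyc11g011470) had 25.84 in AC Br+6 replicate 3 and 40.13 in AC MG replicate 1, at positions 4953 bases apart. The iron-sulfur protein 7 gene (Solyc11g070030) reached 49.91 in AC Br+6 replicate 3, and the flavoprotein 2 gene (Solyc09g065830) 33.46 in AC MG replicate 1. With 2 cytochrome c oxidase subunits, 2 external alternative NAD(P)H oxidoreductases and the assembly factor for complex II, 13 genes were assigned to the chain, a grouping made with the calls known. Of these 13, 0 were called in Nr O, 2 in Nr G, 9 in AC Br+6 and 6 in AC MG, where 9.92%, 34.6%, 46.6% and 44.4% of all 1945 genes were called in those groups. The longest lists, AC Br+6 replicate 3 and AC MG replicate 1, called 7 and 6 of the 13, beside 735 and 609 of all 1945 genes.

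Other genes of the dehydrogenase class are described next. The gene described as an F420 hydrogenase/dehydrogenase beta subunit-like protein (Solyc09g091100, chromosome 9) was called in 4 libraries at 1 position, 70939438 to 70939872. Its fold enrichment was 5.69 in Nr G replicate 1, 7.55 in AC Br+6 replicate 3, and 40.94 and 49.47 in AC MG replicates 2 and 3. The AC MG libraries were the high ones. D-3-phosphoglycerate dehydrogenase (Solyc03g123830, chromosome 3), which starts serine synthesis from a glycolytic intermediate, was called in Nr G replicates 1 and 3 and nowhere else. The peaks, with 4.27 at 72043335 to 72043644 and 29.19 at 72044539 to 72044745, were 895 bases apart.

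The glycolytic gene GAPC2 (Solyc05g014470) had the same peak in AC Br+6 replicate 3 and AC MG replicate 3, with 6.06 and 7.14. The gene for 6-phosphogluconate dehydrogenase (Solyc12g056120), of the oxidative pentose phosphate pathway, had overlapping peaks of 49.68 in AC Br+6 replicate 3 and 7.36 in AC MG replicate 1. A polyvinylalcohol dehydrogenase-like gene (Solyc05g055650) likewise had overlapping peaks, 4.69 in AC Br+6 replicate 3 and 17.75 in AC MG replicate 2. Of the genes called in 1 library, S-(hydroxymethyl)glutathione dehydrogenase (ADH3, Solyc09g064370), which detoxifies formaldehyde, had 49.47 in AC Br+6 replicate 3. In the same library mitochondrial formate dehydrogenase (Solyc02g086880) had 33.61, and proline dehydrogenase (Solyc02g089620), which starts proline breakdown, had 37.18 in AC MG replicate 2.

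The reductases numbered 12, with 9 called in 1 library, beside 75.6% of all mRNA genes. The probable quinone oxidoreductase gene (Solyc01g108150, chromosome 1) was called in Nr G replicate 2 and AC MG replicates 1 and 3, at 3 positions. The position near 95404639 had fold enrichments of 21.8 and 15.26 in AC MG replicates 1 and 3, and the one near 95405474 had 20.13 and 13.9. The third, starting at 95408664, had 36.1 in Nr G replicate 2 and 8.98 in AC MG replicate 3. Both AC MG libraries thus shared 2 positions that no other library had. Geranylgeranyl diphosphate reductase (Solyc03g115980), which makes the phytyl chain of chlorophyll and tocopherols, had 31.25 in Nr O replicate 2 and 50 in AC MG replicate 2, 713 bases apart. Levodione reductase (Solyc07g047800) had 15.2 and 17.03 in AC Br+6 replicate 3 and 50 in AC MG replicate 2, with no overlap. Of those called once, an aldo-keto reductase 4B-like gene (Solyc09g011240) had 44.93 in Nr G replicate 2. Both genes described as relatives of the Arabidopsis oxidoreductase At4g09670 were called in Nr G, with 35.84 in replicate 3 for Solyc11g011840 and 3.14 in replicate 2 for Solyc12g056800. The second of these was chosen after its values were seen. A putative steroid 5beta-reductase (Solyc10g049620) had 20.12 in AC Br+6 replicate 3. In the same library the external alternative NAD(P)H oxidoreductases B2 and B1 (Solyc02g079170 and Solyc10g008630), which pass electrons to ubiquinone without complex I, had 13.95 and 6.97. A very-long-chain 3-oxoacyl-CoA reductase (Solyc02g093640), an enzyme of fatty acid elongation, had 13.75 in AC MG replicate 1.

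All 9 oxidase genes were called in 1 library each, beside 75.6% of all mRNA genes. Of the 9, 0 were called in Nr O, 1 in Nr G, 4 in AC Br+6 and 4 in AC MG. The shares of all mRNA genes called in those groups were 9.92%, 34.6%, 46.6% and 44.4%. ACO6 (Solyc02g036350), an aminocyclopropane carboxylate oxidase of the family that makes ethylene, had the highest value, 28.79 in AC MG replicate 1. Glycolate oxidase GLO2 (Solyc10g007600), a photorespiratory enzyme that releases hydrogen peroxide, had 8.71 in Nr G replicate 1. A long-chain-alcohol oxidase gene (Solyc08g005630) had 3 peaks of 17.53, 16.69 and 4.8 in AC Br+6 replicate 3. In that library, acyl-coenzyme A oxidase (Solyc04g054890), the first enzyme of peroxisomal fatty acid breakdown, had 11.43. Coproporphyrinogen-III oxidase (Solyc10g005110), of haem and chlorophyll synthesis, had 9.03. The copper amine oxidase gene cuAO (Solyc08g079430) had 6.15 and 16.61 in AC MG replicate 3.

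**Figure D4:**
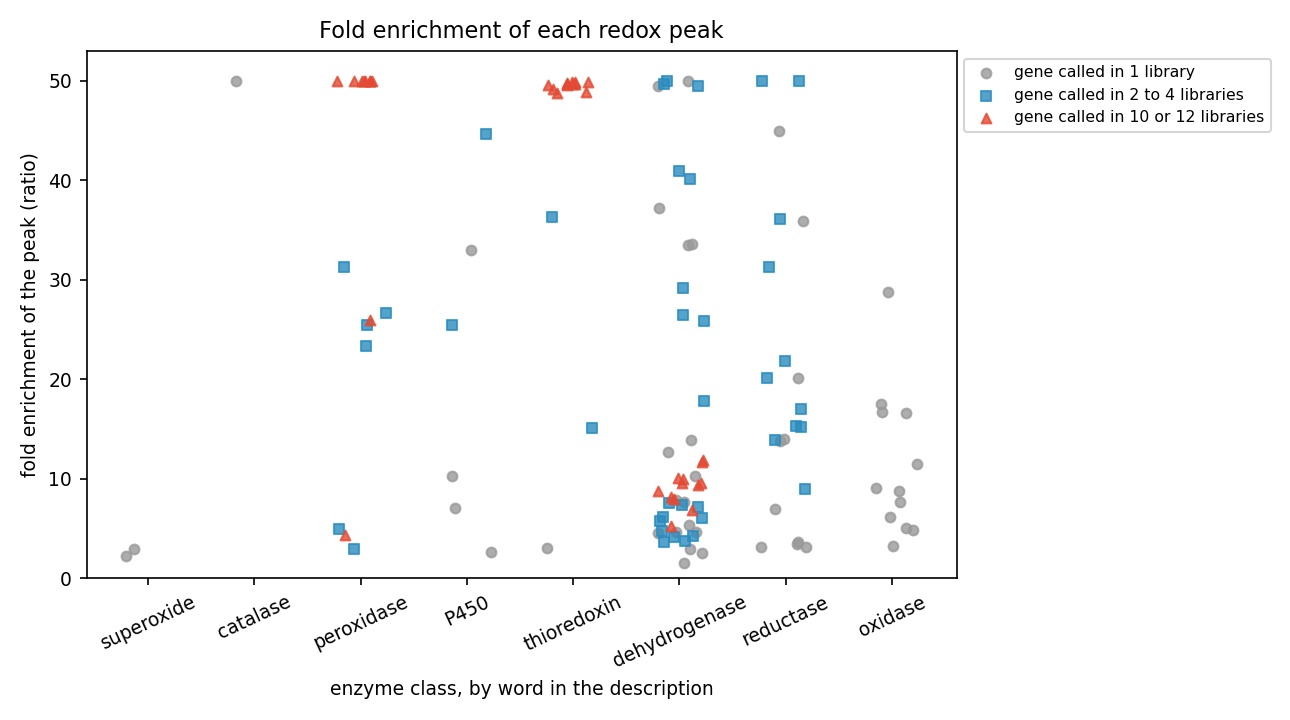
Fold enrichment (vertical axis, the authors' ratio, highest value 50) of each of the 122 redox peaks by enzyme class (horizontal axis), with 1 point per peak, spread sideways for visibility, coloured by how many libraries called the gene. Peaks of genes called in 1 library had a median of 7.89, and the peaks of thioredoxin-like 4 lie between 48.76 and 49.89.

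With the peaks of all libraries pooled and repeated peaks of a gene counted, redox peaks and the rest had similar medians of strength and length. The median fold enrichment was 14.52 for 122 redox peaks and 14.41 for 3730 peaks of other genes, and 9.84% and 9.09% of them stood at the highest value. Within single libraries the medians differed in both directions. The redox median was lowest in Nr G replicate 1, at 8.445 against 14.22 for other genes. It was highest in Nr O replicate 3, at 49.89 from 3 redox peaks against 14.75. The median length was 203 bases for redox peaks and 198 for the others. Without the 2 redox genes called in all 12 libraries, the redox medians were a fold enrichment of 14.52 and a length of 258.5 bases. Genes called in all 12 libraries were not taken out of the others, so no matching length is given. Peaks of redox genes called in 1 library had a median fold enrichment of 7.89, and the value for other genes called in 1 library is not given here. Of these 40 redox genes, 15 were called in AC Br+6 replicate 3 and 13 in AC MG replicate 1. Among all mRNA genes, 1471 were called in 1 library, 454 of them in AC Br+6 replicate 3 and 318 in AC MG replicate 1. With all peaks of those 2 libraries taken, however often the gene was called, redox peaks had medians of 9.03 and 11.46. All peaks of other genes had 12 and 12.98 there. By class the median was 40.62 for peroxidases, 49.58 for the thioredoxin words, 17.86 for P450, 15.26 for reductases, 8.87 for oxidases and 8.76 for dehydrogenases. The peroxidase gene Solyc02g090450 gave 10 of the 16 peroxidase peaks, and thioredoxin-like 4 gave 12 of the 15 thioredoxin peaks.

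Sharing a gene did not always mean sharing a position. Of the 12 redox genes called in 2 libraries, 4 had peaks that overlapped between the libraries by at least 1 base and 8 did not. Over all 257 mRNA genes called in 2 libraries, 132 (51.4%) overlapped. The 3 redox genes called in 3 or 4 libraries and the 3 called in 10 or 12 each had overlapping peaks in some of their libraries. Among all mRNA genes, 93.6% of those called in 3 to 9 libraries and 100% of those called in 10 to 12 had such an overlap. At 6 or more libraries, 3 positions recurred, those of thioredoxin-like 4 (12 libraries), the pyruvate dehydrogenase acetyltransferase (11) and the peroxidase (10). The count of such positions over all mRNA genes is not given here. Counted as genes, 3 of the 58 redox genes and 77 of all 1945 mRNA genes were called in 10 to 12 libraries.

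The groups were compared by a rule on calls, since 3 against 3 libraries cannot pass a test by gene. A gene was gained with peaks in at least 2 of 3 libraries of the first group and 0 of 3 of the second, and lost in the reverse case. Whether mRNA levels differed was not analysed here, and fewer cells of a type cannot be told apart from less RNA per cell. The comparisons share libraries with one another. Red wild-type fruit was set against green to ask what changes in normal ripening. In AC Br+6 against AC MG, 1 of 58 redox genes was gained, the P450 94A1-like gene (2 of 3 against 0 of 3), beside 1.03% of all 1945 genes. The quinone oxidoreductase gene was lost (0 of 3 against 2 of 3), beside 1.44% of all genes. Counted by position, 0 were gained, as the P450 peaks did not overlap, and the 2 positions of the quinone oxidoreductase were lost. Without AC Br+6 replicate 2 or 3 the P450 gene was not gained, and without AC MG replicate 1 or 3 the quinone oxidoreductase gene was not lost. Without AC Br+6 replicate 3 the F420 hydrogenase/dehydrogenase-like gene was lost as well, 2 in all.

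In the mutant, Nr O against Nr G asked what changes when ethylene perception is impaired. No redox gene was gained (0.257% of all genes were), and 1 was lost, D-3-phosphoglycerate dehydrogenase with 0 of 3 against 2 of 3, beside 2.72% of all genes. In green fruit, Nr G against AC MG, the same gene was gained (2 of 3 against 0 of 3, beside 1.23% of all genes) and none was lost, where 2.16% of all genes were. Both calls of D-3-phosphoglycerate dehydrogenase came from the same Nr G libraries at different positions, and by position 0 were lost in the first comparison and 0 gained in the second. Without Nr G replicate 1 or 3 both calls were gone. By position the quinone oxidoreductase had 2 positions lost in Nr G against AC MG. Leaving out Nr G replicate 1 made the F420 hydrogenase/dehydrogenase-like gene lost there, and leaving out replicate 2 the quinone oxidoreductase gene, 1 in each case.

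In late fruit, Nr O against AC Br+6, 0 redox genes were gained, beside 0.103% of all genes. The P450 94A1-like gene was lost (0 of 3 against 2 of 3), beside 2.11% of all genes. By position 0 were lost, and without AC Br+6 replicate 2 or 3 the call was gone. In each of the 4 comparisons at most 1 gene of 58 (1.72%) moved in a direction, with calls in 2 of 3 libraries at most.

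Over all 12 libraries, the redox genes called in 3 to 9 of them were tested one by one with a two-sided Fisher exact test, adjusted by the Benjamini-Hochberg method over the 140 genes tested. The quinone oxidoreductase gene had peaks in 0 of 6 late and 3 of 6 green libraries (exact p 0.182, adjusted p 1). The F420 hydrogenase/dehydrogenase-like gene had them in 1 of 6 late and 3 of 6 green libraries (exact p 0.545, adjusted p 1), and in 1 of 6 Nr and 3 of 6 AC libraries (exact p 0.545, adjusted p 1). The quinone oxidoreductase gene had 1 of 6 Nr against 2 of 6 AC libraries (exact p 1). The flavoprotein subunit gene of succinate dehydrogenase had 1 of 6 late against 2 of 6 green libraries and 1 of 6 Nr against 2 of 6 AC libraries (exact p 1 in each). None of the 3 redox genes passed for stage or genotype or had an unadjusted p under 0.05, and 0.0% of the 140 genes passed for either factor. Over those 140 genes, 0 had an unadjusted Fisher p under 0.05 for stage and 1 for genotype. With 3 calls the smallest p that 6 against 6 libraries allow is 0.182, and with 4 calls it is 0.0606, so none of the 3 redox genes could pass, and these values do not show that the genes were called alike.

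Redox-related words outside the rule were counted too. Descriptions with glutathione, glutaredoxin, peroxiredoxin, ferredoxin, oxygenase, metallothionein, ubiquinone, cytochrome b or cytochrome c added 16 genes. Of these, 12 were called in 1 library, beside 75.6% of all 1945 genes. The word oxygenase also took in 2 proteins that act on Rubisco. A cytochrome b-c1 complex subunit 8-like gene (Solyc06g007540), of respiratory complex III, was called in all 12 libraries. A 2-oxoglutarate-dependent dioxygenase AOP1 gene (Solyc02g062500) was called in 1 Nr G, 2 AC Br+6 and 1 AC MG library. Of the 16, 1 was called in Nr O, 6 in Nr G, 9 in AC Br+6 and 8 in AC MG, beside the same 9.92%, 34.6%, 46.6% and 44.4% of all 1945 genes. The lists for lncRNAs and circRNAs had 0 entries that overlapped a redox peak or named a redox gene as partner or host.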

How the data were processed

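The data were 36 deposited peak lists, 12 each for mRNA, lncRNA and circRNA. Each was assigned to its IP library by genotype, stage and replicate number. The 12 input libraries were not analysed here. Per the labels' protocols, an alkaline buffer rearranged m1A to m6A before whole-RNA libraries were made from IP and input fragments. Per the submitters' processing notes, cutadapt 1.9.3 and HISAT2 2.0.4 were used. No source used here gives the peak caller, its settings or its control. Fold enrichment, as deposited, is a ratio with a highest value of 50. The score column is 10 times the negative log10 p-value, per the file headers. FDR was deposited as a percent, reads 100 throughout and was not used. Peak length is end minus start in the deposited lists.

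A gene was called in a library with at least 1 mRNA peak. Coordinates are as deposited, on SL3.00, the build a circRNA scaffold names; whether starts count from 0 or 1 is not given, and exons or UTRs were not annotated here. Symbols are the lists' own. Of 58 redox genes, 57 had a gene number, 55 of these were in the reference table (assembly SLM_r2.1) and 53 had the same symbol there. Members and lists were chosen with earlier results of these data known. Full values are given for genes called in 3 or more libraries or gained or lost, and genes called in 2 are all named. Of those called once, up to 6 per class are named by fold enrichment, with exceptions stated. Class was the first word found, in the order superoxide, catalase, peroxidase, P450, thioredoxin, dehydrogenase, reductase, oxidase. The design text calls the replicates biological without naming plants, so p-values cover the spread between these libraries. No 2 of the 12 mRNA lists were identical. Fisher tests used SciPy 1.17.1 in Python 3.11.15, and were tested on simulated data. Alternatives were stronger peaks, equal list length, calls by position, stricter overlap, other denominators, leaving out libraries and a replicate block.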

Additional observations from a re-analysis of the deposited data

How the results depend on the processing

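Thresholds and list length changed most small counts. With only peaks that reached the median fold enrichment of all mRNA peaks, AC Br+6 against AC MG lost 2 redox genes, Nr O against Nr G lost 0, and Nr G against AC MG gained 0 and lost 1. With lists at equal length, Nr O against Nr G gained 1 and lost 0, Nr G against AC MG gained 0 and lost 1, and Nr O against AC Br+6 gained 1. The gene gained both times was the pyruvate dehydrogenase acetyltransferase, called in 12 full lists, 3 shortened ones and 0 at the median threshold. The gene lost in AC Br+6 against AC MG was then the F420 hydrogenase/dehydrogenase-like one and not the quinone oxidoreductase. By position, AC Br+6 against AC MG gained 0 and lost 2, Nr O against Nr G lost 0, Nr G against AC MG gained 0 and lost 2, and Nr O against AC Br+6 lost 0. Leaving out 1 replicate gave 0 to 1 gained and 0 to 2 lost in AC Br+6 against AC MG. It gave 0 gained and 0 to 1 lost in Nr O against Nr G and in Nr O against AC Br+6, and 0 to 1 of each in Nr G against AC MG. The reduced group then had to show 2 of 2 or 0 of 2, so part of this follows from the rule.

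At equal list length the redox share of called genes was 2.94% in Nr O, 3.75% in Nr G, 3.53% in AC Br+6 and 3.49% in AC MG, so that AC MG no longer had the highest mean. Without the 61 genes called in all 12 libraries it was 1.39% in Nr O, 2.68% in Nr G, 2.65% in AC Br+6 and 3.43% in AC MG. Those 61 genes were a larger part of the Nr O lists, which held 104, 141 and 121 called genes, than of any other list. With described genes as denominator the shares were 8.19% in Nr O, 6.27% in Nr G, 6.98% in AC Br+6 and 7.52% in AC MG. All were higher because the denominator is smaller by construction. The order of the groups changed too, as Nr O went from the lowest mean (2.41%) to the highest. Only described genes could enter the redox set, and the library ranges of the groups still overlapped. Leaving out 1 replicate gave 2.2% to 2.66% in Nr O, 2.51% to 3.28% in Nr G, 2.53% to 3.5% in AC Br+6 and 3.11% to 3.68% in AC MG. The 58 genes became 28 without the 2 longest lists, 28 at the median threshold and 19 at equal length, alternatives chosen after seeing the data. All 1945 genes became 1125 without the 2 longest lists, and their counts in the other settings are not given here. The 3 recurrent positions stayed 3 under a stricter overlap and without any 1 library. At the median threshold 2 positions recurred, and the counts over all mRNA genes are not given here. With the replicate block 0 redox genes passed for stage and 0 for genotype. No member could pass the main Fisher exact test with its 3 or 4 calls, so a count of 0 there and under the alternatives says nothing about stability. Same-numbered libraries correlated between -0.0669 and 0.0722 over 12 pairs, so the numbers were not taken to pair them. Causes other than those named were not tested. Depth is unknown, so no limit can be set on what an absent peak means.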
